A study of Homo sapiens with 4 samples.

Results

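Gain of the long arm of chromosome 1 at band 1q21 is a common lesion of multiple myeloma, and 7 genes of that region were described here for their occupancy by the transcription factor IRF3. The genes were CKS1B, ILF2, ANP32E, BCL9, ARNT, PDZK1 and UBAP2L, listed by name as genes of the 1q21 to 1q23 gain. The list was made with earlier results of these data known. The listed genes were 7 of 20033 protein-coding genes of the main chromosomes in the RefSeq gene table. A peak was assigned to a gene when its summit lay in the annotated gene span or within 10 kb on either side, which gave 23 regions of 49089 in all. MM1.S, an established human myeloma cell line, was the single cell type, grown in medium with serum and given no treatment. There were 2 IRF3 ChIP libraries, replicates 1 and 2, each with a peak list of its own, called against a different input library of sheared chromatin. Separate cultures are not named in the labels, so the spread between replicates may be technical, and all 4 libraries came from 1 line under 1 condition. With no second condition there was no group to test against, so the values are a description with both replicates given, and no p-value is given.

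IRF3 is known as the factor that turns on interferon genes after cells sense foreign or misplaced nucleic acid. In resting cells most of it is held in the cytoplasm, and phosphorylation sends it to the nucleus, where it binds DNA repeats of the GAAA type. Extra copies of 1q21 in myeloma raise the dose of many neighbouring genes at once, which is why the genes that matter there have been debated. CKS1B, a cofactor of the ubiquitin ligase that removes the cell cycle inhibitor p27, is the gene most often used to score the gain. ILF2 is an RNA-binding protein, ANP32E is a chaperone that removes the histone variant H2A.Z, and BCL9 is a coactivator of beta-catenin in Wnt signalling. ARNT is the constitutive partner of the hypoxia-inducible factors and of the aryl hydrocarbon receptor. PDZK1 is a scaffold protein of membrane transporters, and UBAP2L is an RNA-binding protein of stress granules.

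The sequences before the starts of 4 genes are shown first because IRF3 regions lay at these starts in both libraries and the sequences hold the motifs described next. BCL9 also had a region at its start, but no match to the searched motifs, and its sequence is not shown. Each holds the 250 bases upstream of the first start in the promoter table, 5′ to 3′ on the strand of the gene, from RefSeq assembly GRCh38.p14. Capitals mark CCAAT, the core of the NF-Y site, or its reverse complement in CKS1B (chr1:154974431-154974680, plus strand) and ILF2 (chr1:153670994-153671243, minus strand). In UBAP2L (chr1:154220599-154220848, plus strand) capitals mark the E-box CACGTG. In ARNT (chr1:150876600-150876849, minus strand) capitals mark a match to the composite site of ETS and IRF factors, GGAA and GAAA separated by any 2 bases, on the opposite strand.
CKS1B: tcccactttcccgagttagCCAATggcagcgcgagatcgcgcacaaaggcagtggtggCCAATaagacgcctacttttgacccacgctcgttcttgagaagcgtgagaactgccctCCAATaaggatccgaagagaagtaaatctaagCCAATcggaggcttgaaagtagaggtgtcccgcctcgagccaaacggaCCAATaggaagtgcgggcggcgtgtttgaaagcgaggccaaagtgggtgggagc
ILF2: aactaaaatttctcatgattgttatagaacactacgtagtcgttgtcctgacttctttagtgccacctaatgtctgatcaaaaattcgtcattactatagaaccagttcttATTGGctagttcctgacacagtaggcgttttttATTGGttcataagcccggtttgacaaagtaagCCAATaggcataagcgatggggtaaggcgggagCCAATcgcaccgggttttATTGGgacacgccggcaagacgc
UBAP2L: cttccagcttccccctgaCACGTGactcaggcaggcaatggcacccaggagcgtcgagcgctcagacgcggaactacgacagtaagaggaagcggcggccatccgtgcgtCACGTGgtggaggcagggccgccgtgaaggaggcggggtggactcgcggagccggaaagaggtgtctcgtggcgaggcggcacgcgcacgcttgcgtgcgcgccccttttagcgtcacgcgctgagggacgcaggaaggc
ARNT: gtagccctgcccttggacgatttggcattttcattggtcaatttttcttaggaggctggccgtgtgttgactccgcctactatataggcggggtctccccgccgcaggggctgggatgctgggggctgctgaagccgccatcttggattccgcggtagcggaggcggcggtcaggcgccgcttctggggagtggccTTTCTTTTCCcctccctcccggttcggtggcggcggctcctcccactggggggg

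Of the 7 genes, 6 were in the RefSeq promoter table, with 9 start windows of 300 bases each (250 before and 50 after the start). All motif searches covered both strands of these windows. The core of the interferon-stimulated response element, GAAA repeated after any 2 bases, was found in 0 of the 9 windows, compared with 3.57% of all 35116 windows in the table. The ETS and IRF composite was in the ARNT window alone among these genes and in 2.82% of all windows. The match, TTTCTTTTCC, began at −54 from the ARNT start. CCAAT occurred 5 times in the CKS1B window and 5 times in the ILF2 window, a number reached by 126 of all windows (0.359%). The cutoff of 5 was taken from these same windows, so this share is a description. In CKS1B all 5 ran on the strand of the gene, while in ILF2 2 did so and 3 ran on the other. A single CCAAT was in the ARNT window. At least 1 CCAAT was thus in 3 of the 9 windows, near the share of all windows (34.6%). CACGTG was in 2 of the 3 UBAP2L windows, each with 2 matches, against 7.26% of all windows with at least 1. These windows overlap and share 1 of the matches, so the distinct E-boxes numbered 3. The E-box at −232 from the first UBAP2L start overlapped a match to the AP-1 site TGANTCA, which was in 7.71% of all windows. GGGCGG, the SP and KLF site, was in the windows of CKS1B, ILF2 and UBAP2L and in 45.0% of all windows. The ETS site CCGGAAGT (4.14% of all windows), the CRE TGACGTCA (1.85%), the NRF1 site, GCGC on both sides of AT (1.24%), and TATAAA (11.5%) were in none of the 9 windows. A match of this kind is a description of letters, and whether a factor binds it was not measured.

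The genes differed in base composition before their starts. UBAP2L had 31 CpG dinucleotides in the 250 bases before its first start and 32 and 21 before the others, CKS1B and ARNT 18 each and ILF2 12. BCL9 had 3, and the start windows of PDZK1 had 3 and 4. The median of all windows was 11. The base composition ran from 43.6% GC in ILF2 to 70.0% before the second start of UBAP2L, with a median of 58.0% over all windows.

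Each of the 7 genes had at least 1 region with a peak in both replicates, called a shared region. Under the same rule 69.4% of all protein-coding genes had one, and the share grew with the span, from 51.6% of genes under 10 kb to 71.8% of genes of 10 to 50 kb, 79.8% of genes of 50 to 100 kb and 84.7% of longer ones. A peak of replicate 1 was assigned to all 7 genes and to 72.1% of all protein-coding genes, and a peak of replicate 2 to all 7 and to 74.4%. The lists held 41880 peaks in replicate 1 and 41666 in replicate 2, from 38568845 and 46474586 ChIP tags. Within 10 kb of the 7 genes lay 19 and 21 of these peaks, which merged into 16 shared regions, 2 regions of replicate 1 alone and 5 of replicate 2 alone. BCL9, the longest of the genes, had 4 shared regions, CKS1B and UBAP2L 3 each, ILF2 and ANP32E 2 each, and ARNT and PDZK1 1 each. The genes with 2 or more numbered 5 of 7, against 39.6% of all protein-coding genes. When regions nearer to an end of another coding gene were left out, ILF2, UBAP2L and CKS1B had 1 each and BCL9 had 2. BCL9 and ANP32E were then the only genes of the 7 with 2 or more. The share of all genes was not recomputed in that way. Spans also differed, with a median of 36549 bp for the 7 genes and 24130 bp for all coding genes. The plasma cell genes SDC1, TNFRSF17, CD38, XBP1, IRF4 and PRDM1 each had a shared region, as did 69.4% of all protein-coding genes. Peak lists hold no expression values, so the labelled cell type could not be checked from them.

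**Figure D1:**
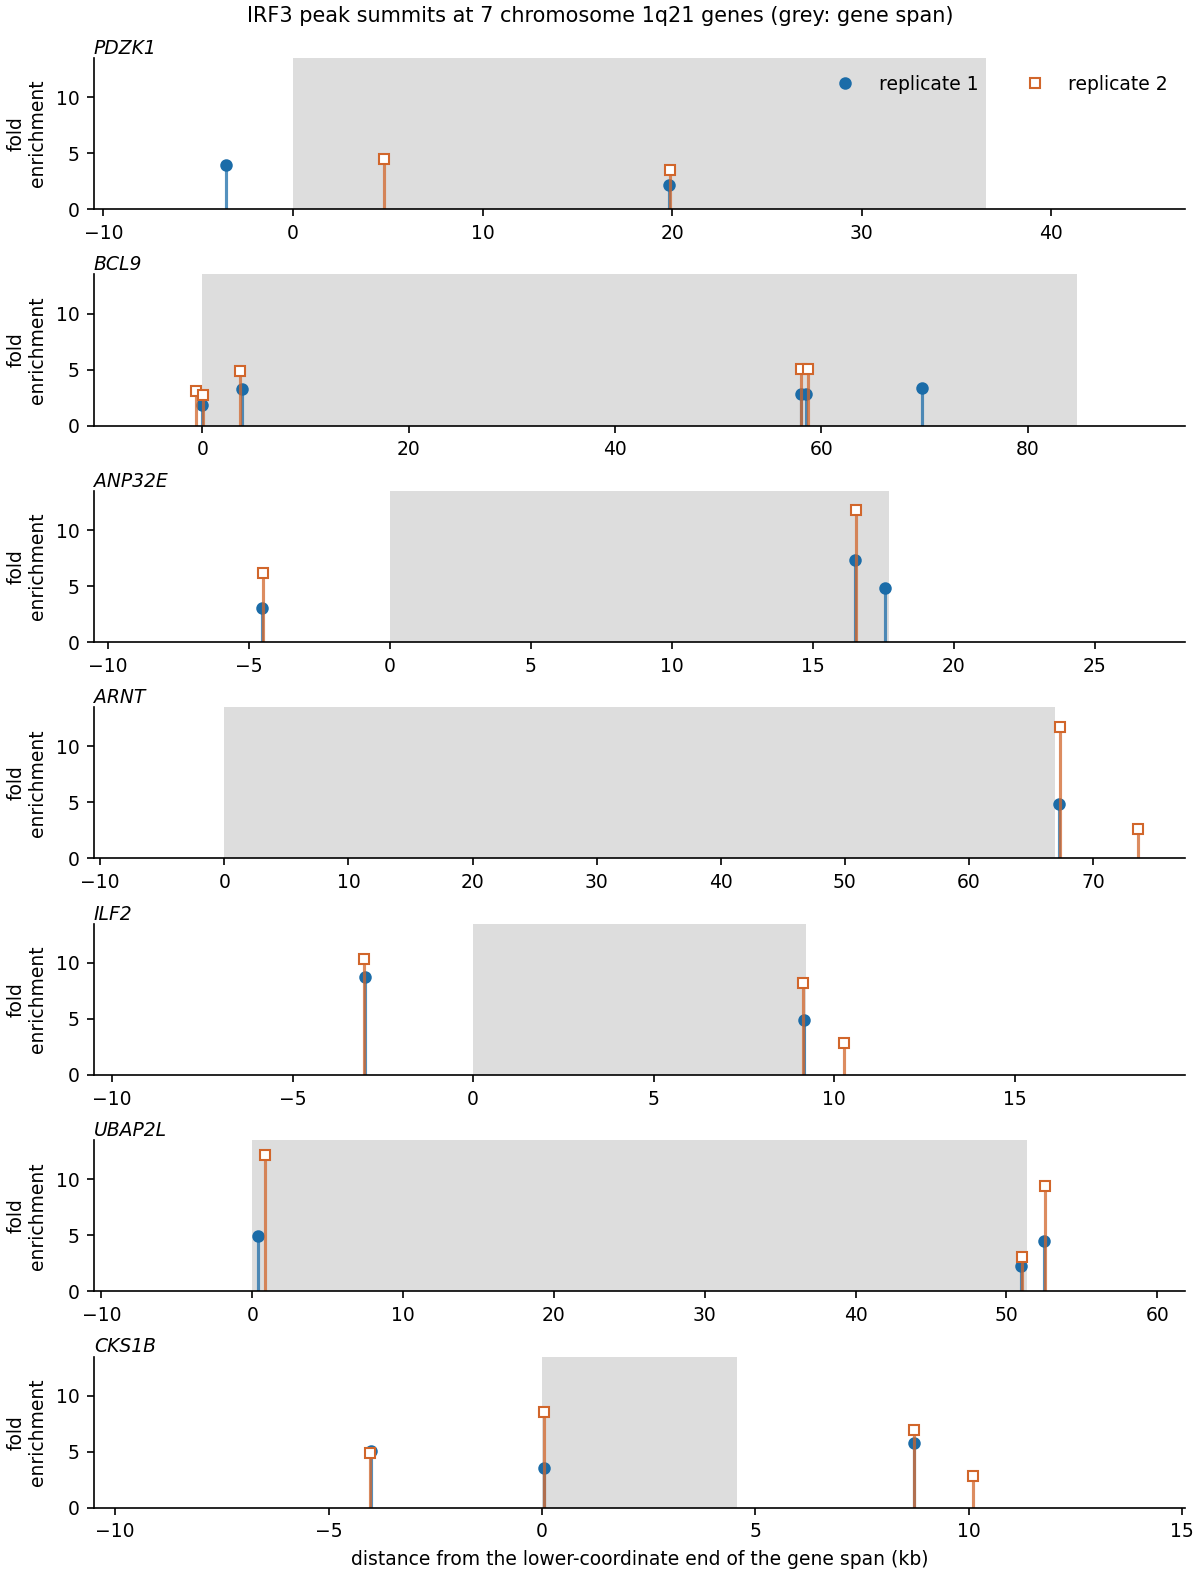
Fold enrichment over input (y axis) of every peak summit assigned to the 7 genes, placed by distance in kb from the lower-coordinate end of the gene span (x axis, grey band), with filled circles for replicate 1 and open squares for replicate 2. CKS1B, ILF2, ARNT and BCL9 have a summit of both replicates at 1 end of the band, and UBAP2L has them at both ends. PDZK1 has its single shared region inside the band.

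Fold enrichment is the authors' value for each peak, the stack of ChIP fragments at the summit (the pileup) over the local input background. Both terms have 1 fragment added, so the local background can be solved for from the deposited pileup and fold enrichment. The background is in fragments, scaled by the peak caller to the ChIP library. In each list the solved background gave back the deposited −log10 p to within 0.001 at every peak for which a value could be computed, 41594 and 41316 peaks.

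The cell cycle gene CKS1B (chromosome 1, 154974681 to 154979251) lies head to head with SHC1, which encodes a signalling adaptor. A shared region of 2896 bp (154973461 to 154976356) covered the start of CKS1B, the facing end of SHC1 and the microRNA gene MIR4258 inside CKS1B. Its summits lay 55 and 46 bp downstream of the CKS1B start, 9 bp apart, and 360 and 351 bp from the SHC1 start. The fold enrichment there was 3.55 in replicate 1 and 8.57 in replicate 2. The pileups were close, with 182 and 165 fragments, and the backgrounds were not, with 50.5 and 18.4 fragments. Thus the region stood at the 40.8th percentile of fold enrichment in the list of replicate 1 and at the 85.0th in that of replicate 2. The region of the CKS1B window that ranked best over both lists was not at CKS1B but 61 bp from the start of FLAD1, the FAD synthase gene (154982772 to 154983926, fold enrichment 5.76 and 6.99). A further region lay 80 bp from an internal start of SHC1 (154970395 to 154971105, 5.03 and 4.86). It was the single shared region of the 7 genes with the higher value in replicate 1. Replicate 2 alone had a peak of 2.85 within FLAD1.

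The RNA-binding protein gene ILF2 (153661788 to 153670993, minus strand) had a region of 1028 bp over its start (153670668 to 153671695), which also covered the transfer RNA gene TRX-CAT1-1. Its summits lay 37 and 77 bp inside the gene, and the fold enrichment was 4.94 and 8.20. The pileups were 174 and 165 fragments over backgrounds of 34.4 and 19.3. The highest value of the window, 8.77 and 10.3, belonged to a region beyond the 3′ end of ILF2 (153658324 to 153659030). That summit lay 77 bp from a start of SNAPIN, which encodes a SNARE-associated protein, and 3008 bp from the nearer end of ILF2. A peak of replicate 2 alone (2.88) lay 1072 bp upstream of the ILF2 start.

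UBAP2L (154220172 to 154271510, plus strand) had a region of 1663 bp at its start (154220224 to 154221886), with a fold enrichment of 4.95 and 12.2. The replicates put the summit at different places, 465 bp apart. That of replicate 1 lay 265 bp upstream of the nearest UBAP2L start in the table and 6 bp from the start of the facing gene LTAP1, while that of replicate 2 lay 94 bp downstream of a UBAP2L start. The pileups were 241 and 185 fragments, over backgrounds of 47.9 and 14.3. At the other end of the gene a region 94 bp from the start of HAX1, a gene of a mitochondrial survival protein, had 4.51 and 9.37 (154271947 to 154273180). Just inside the UBAP2L end a weak region had 2.29 and 3.07.

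ARNT, the hypoxia pathway gene (150809713 to 150876599, minus strand), had 1 shared region, at its start (150876117 to 150877363). Its summits lay 344 and 420 bp upstream of the start, so beyond the 250 bases printed above. The fold enrichment was 4.88 and 11.7, with pileups of 218 and 281 fragments over backgrounds of 43.9 and 23.1. The pileup of 281 was the highest of any peak assigned to the 7 genes. No shared region lay elsewhere in its span of 66887 bp, and a peak of replicate 2 alone (2.63) lay 6757 bp upstream.

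The histone chaperone gene ANP32E (150218417 to 150236112) had the second-ranked region of the set and the first of those not at a neighbouring gene (150234231 to 150236756). Replicate 2 had 1 peak there with a fold enrichment of 11.8. Replicate 1 had 2 peaks, of 7.31 with a summit 57 bp from that of replicate 2, and of 4.84 nearer the higher-coordinate end of the gene. The strongest summit lay 1152 bp inside that end, and the region ran across it. The backgrounds of 29.1 and 17.7 fragments were under pileups of 219 and 220. A second shared region 4513 bp below the lower-coordinate end had 3.01 and 6.20. The nearest end of another coding gene, that of CA14, was 43870 bp from it.

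BCL9, the Wnt coactivator gene (147541501 to 147626216, plus strand), had the weakest start region. Its summits lay 40 bp upstream and 28 bp downstream of the start, with a fold enrichment of 1.81 and 2.69. These stood at the 0.160th and 9.48th percentiles of the lists. The −log10 q was 2.03 and 5.82, and the lowest −log10 q in the lists was 1.305 and 1.311. A second region, 3888 and 3697 bp inside the gene, had 3.29 and 4.88. The other 2 lay side by side, with summits 58018 to 58736 bp into the gene (147599353 to 147599688 and 147599782 to 147600453), with 2.80 and 5.02 in one and 2.79 and 5.04 in the other. These neighbours thus had nearly equal values within each replicate. A peak of replicate 1 alone (3.38) lay 347 bp from LOC128071544, a coding gene inside the BCL9 span.

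PDZK1, the transporter scaffold gene (145670852 to 145707400, minus strand), was the single member of the promoter table with no shared region near a start. Its nearest, of 2.19 and 3.49, lay 16695 and 16621 bp inside the gene (145690563 to 145690943). Other peaks of 3.90 in replicate 1 and 4.48 in replicate 2 lay at separate places and were not shared.

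Within 1 kb of an annotated start, a shared region was present in 5 of the 6 genes with a start in the table, compared with 54.4% of 15842 protein-coding genes. Within 1 kb of either span end the count was 5 of 7, compared with 50% of all protein-coding genes, with 1 summit taken per region. ANP32E was not counted by this rule, although its region ran across an end of the gene. At a fold enrichment of at least 5 in both replicates, 3 of 7 genes had a region in their window (ANP32E, and ILF2 and CKS1B through SNAPIN and FLAD1), against 42.7% of all protein-coding genes. This last share is near its background and is not a result about these genes. None of the 5 start regions reached 5 in replicate 1.

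Ranked by the lower of its percentiles in the 2 lists, the best region of each gene gave the order ILF2, ANP32E, CKS1B, UBAP2L, ARNT, BCL9 and PDZK1. Not all neighbours in this order were apart. ILF2 was above ANP32E in replicate 1 (8.77 against 7.31) and below it in replicate 2 (10.3 against 11.8), and CKS1B was above UBAP2L in replicate 1 and below it in replicate 2. UBAP2L and ARNT kept their order with nearly equal values. ARNT was above BCL9, and BCL9 above PDZK1, in both replicates. Among the 13900 protein-coding genes with a shared region, ILF2 stood at the 76.7th percentile, CKS1B at the 53.0th, BCL9 at the 11.5th and PDZK1 at the 0.701st. The places of ILF2 and CKS1B in these rankings came from the regions at SNAPIN and FLAD1. By their own start regions, the lower of the percentiles in the lists was 69.6 for ILF2 and 40.8 for CKS1B. That of UBAP2L was 69.8 and that of ARNT 68.8. The median of the 7 best regions was 4.95 in replicate 1, below the 5.93 of all such genes, and 10.3 in replicate 2, above their 8.39.

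**Figure D2:**
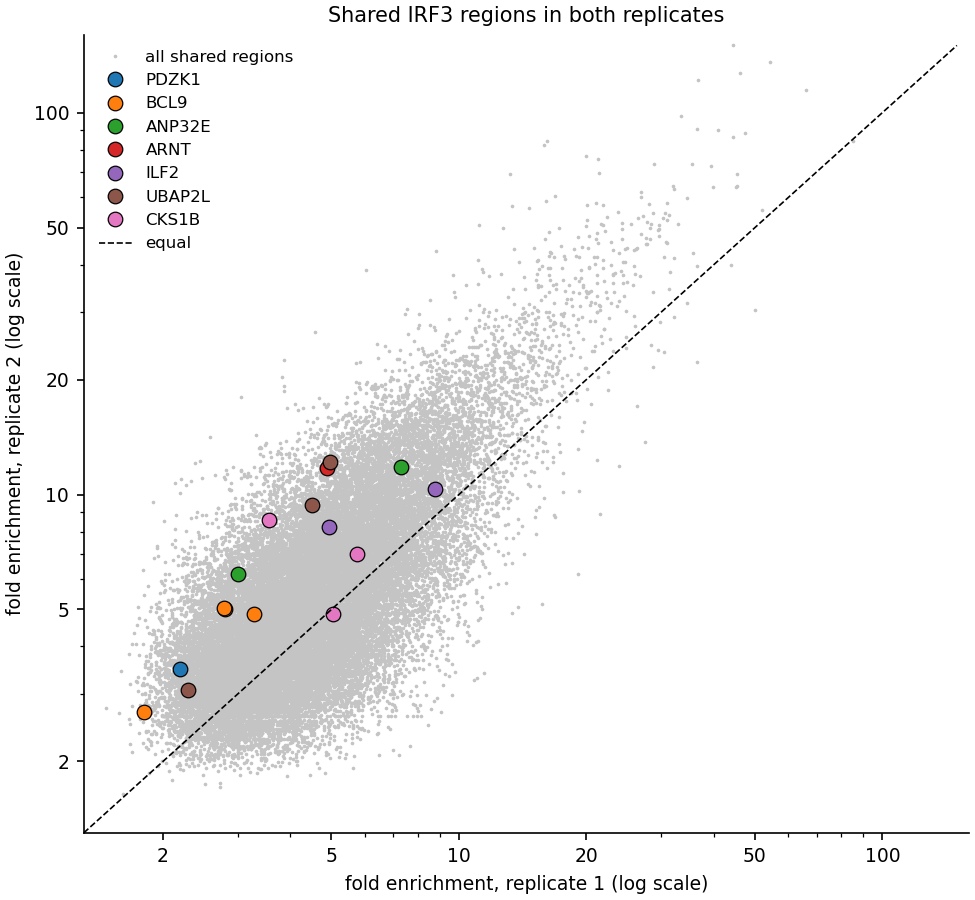
Fold enrichment of shared regions in replicate 1 (x axis) and replicate 2 (y axis), both on log scales, with grey points for all 32246 shared regions and coloured circles for the 16 regions of the 7 genes. Of these 16, 15 lie above the dashed line of equal values, and the start regions of UBAP2L, CKS1B and ARNT have the highest ratios of the 16, 2.45, 2.41 and 2.40.

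The fold enrichment of the replicates was set side by side over the 16 shared regions. Fold enrichment was higher in replicate 2 at 15 of the 16 shared regions, compared with 68.2% of all shared regions. The median ratio of replicate 2 to replicate 1 was 1.64, with a range of 0.966 to 2.45, against 1.19 over all. Many of the 16 lay at gene starts, of these genes or of their neighbours. At the starts of 8624 protein-coding genes the median fold enrichment was also higher in replicate 2, with 5.59 in replicate 1 and 8.54 in replicate 2. Whether position at a start bears on the ratio at the 16 regions was not tested. The pileup did not move with fold enrichment. It was higher in replicate 2 at 6 of the 16 and at 18.3% of all shared regions. The background was higher in replicate 1 at all 16 and at 93.1% of all shared regions, by a median factor of 1.99 at the 16 regions and 1.65 over all. Summits of the 2 replicates lay within 100 bp of each other in 13 of 16 regions and in 76.9% of all shared regions.

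At these genes the local background was high in both libraries, and this separated pileup from fold enrichment. The median pileup of the 16 regions was 175.5 fragments in replicate 1 and 110 in replicate 2, compared with 73 and 54 over all shared regions. The median background was 31.2 and 16.2 fragments, compared with 17.3 and 10.4. By pileup the 16 regions stood at a median percentile of 92.2 and 87.1 in the lists, and by fold enrichment at 51.9 and 75.04. For all shared regions these medians were 60.3 and 60.1 by pileup and 58.5 and 59.7 by fold enrichment. By fold enrichment the 16 were thus below the typical shared region in replicate 1 and above it in replicate 2. All 16 ranked higher by pileup than by fold enrichment in both replicates, which was so for 40.2% of all shared regions. Since fold enrichment divides the pileup by the background, this count restates the high background and is not a separate result. The 16 regions also lie in 1 part of chromosome 1 and are not independent observations.

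The start regions were then set beside those of other genes. Among the 8624 protein-coding genes with a shared region within 1 kb of a start, the median background was 19.3 fragments in replicate 1 (quartiles 15.1 and 23.8) and 10.4 in replicate 2 (8.47 and 12.3). CKS1B had the 99.98th percentile of background in replicate 1 and the 96.7th in replicate 2. Its pileup was at the 81.4th and 82.9th percentiles and its fold enrichment at the 16.0th and 50.3rd. Of the 4 genes with a high background in replicate 1, CKS1B had the lowest fold enrichment in replicate 1, and ILF2 in replicate 2. ARNT was at the 99.7th and 99.8th percentiles of background, ILF2 at the 97.0th and 98.1st, and UBAP2L at the 99.9th and 86.6th. The pileups of these 3 lay between the 79.4th and 95.6th percentiles. Their fold enrichment was at the 39.0th and 72.9th percentiles in ARNT, the 39.9th and 46.8th in ILF2, and the 40.1st and 75.2nd in UBAP2L. Thus all 3 were below the median start in replicate 1, and ARNT and UBAP2L were above it in replicate 2. BCL9 differed, with a background at the 75.2nd and 83.9th percentiles and a pileup at the 7.16th and 6.91st.

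**Figure D3:**
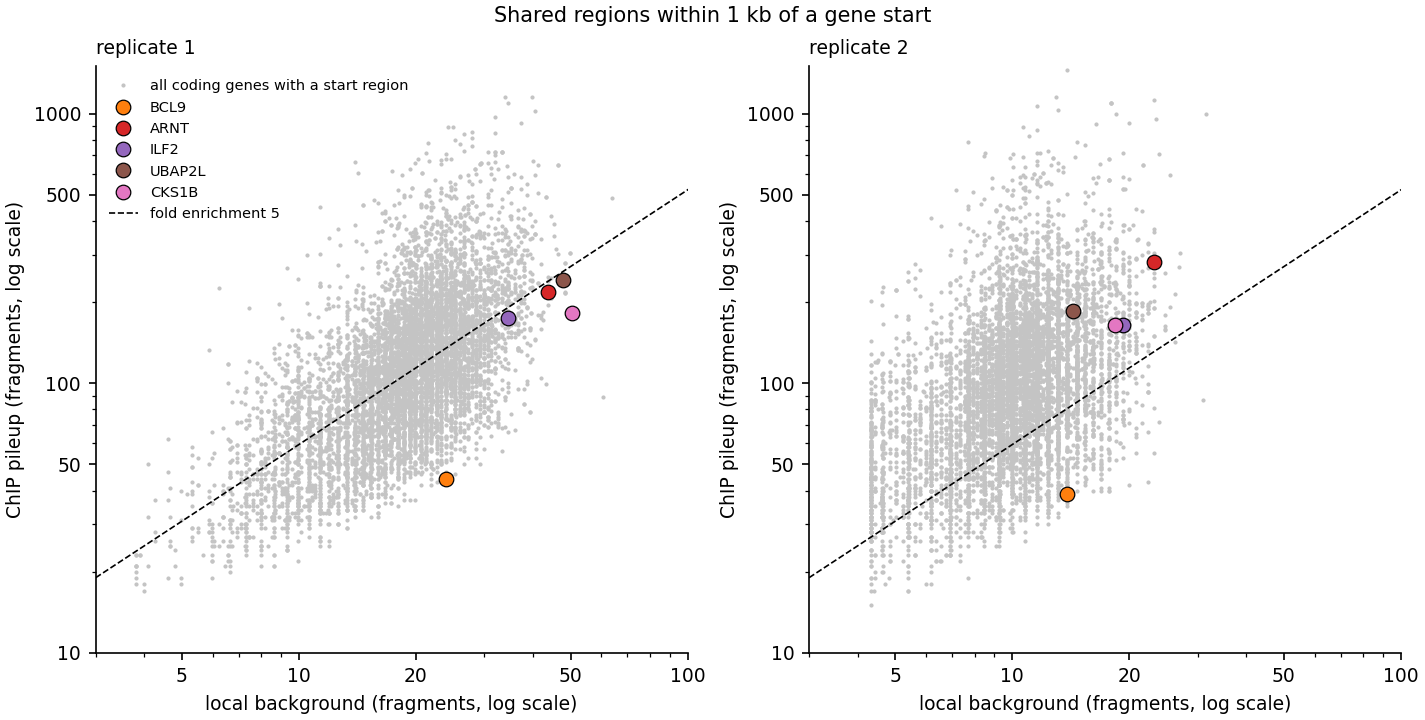
ChIP pileup (y axis) against local background (x axis), both in fragments on log scales, for the strongest shared region within 1 kb of a start of each protein-coding gene (grey) and of 5 genes of 1q21 (coloured), with 1 panel per replicate. Along the dashed line the fold enrichment is 5, and 2 and 3 grey points lie outside the axes. CKS1B, ARNT, ILF2 and UBAP2L lie below the line and to the right in replicate 1 and above it in replicate 2, while BCL9 lies below it in both.

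The background was then compared along the chromosome, since all 7 genes lie in the 9.31 Mb from PDZK1 to CKS1B. This interval held 268 peaks in replicate 1 and 280 in replicate 2, and 217 protein-coding genes. The median background at its peaks was 26.0 fragments in replicate 1 (quartiles 18.9 and 32.1) and 14.7 in replicate 2 (11.6 and 17.7). Over the other peaks of the genome it was 16.0 and 10.01, which made ratios of 1.63 and 1.46. Peaks within 1 kb of a coding gene end made up 36.6% and 36.8% of the peaks in the interval and 23.8% and 26.3% of the others. Peaks over 10 kb from any such end, taken alone by a choice made after seeing the data, gave ratios of 1.64 and 1.35. Set beside the rest of chromosome 1 and each other chromosome with at least 90 peaks, 24 sets in all, the interval had the highest median in both replicates, followed by chromosome 21 (21.3 and 13.1). The rest of chromosome 1 was 1 set here, with the stretches below and above the interval pooled.

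The high background did not stop at the 7 genes. Above CKS1B, towards the end of the long arm, the median over all peaks was 23.3 fragments in replicate 1 and 14.6 in replicate 2. It was thus below that of the interval in replicate 1 and nearly equal to it in replicate 2. Over peaks more than 10 kb from a coding gene end, the stretch above CKS1B was below the interval in replicate 1 and above it in replicate 2. The interval was therefore not the highest part of the chromosome by every measure. Below PDZK1, a stretch that is largely the short arm, the median over all peaks was 14.8 and 9.24. In steps of 5 Mb over distal peaks, it went from 19.9 to 25.6 fragments across the interval in replicate 1 and from 10.6 to 15.02 in replicate 2. On the short-arm side, the steps centred at −152.5 to −62.5 Mb from CKS1B had 10.49 to 18.6 fragments in replicate 1 and 6.93 to 11.6 in replicate 2, on both sides of the median elsewhere in the genome. The steps centred at −57.5 to −32.5 Mb were lower, with 5.98 to 9.97 fragments in replicate 1 and 4.32 to 6.08 in replicate 2. Copy number was not measured in these files, and its part in the background and in the fold enrichment was not tested.

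**Figure D4:**
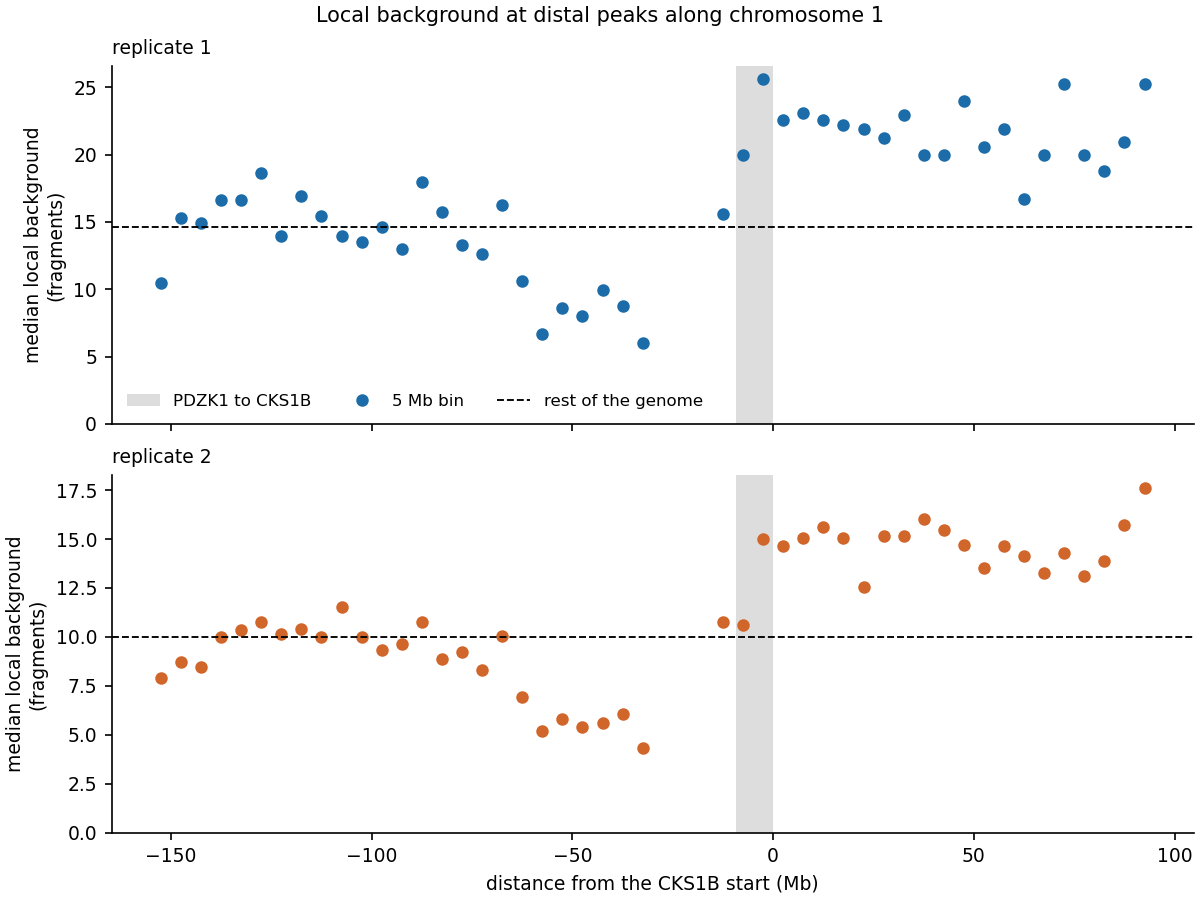
Median local background in fragments (y axis) of peaks over 10 kb from a coding gene end, in 5 Mb steps of chromosome 1 with at least 10 peaks, by distance from the CKS1B start in Mb (x axis), with 1 panel per replicate. The grey band is the interval from PDZK1 to CKS1B and the dashed line the median of such peaks elsewhere in the genome, 14.6 and 10.01 fragments. Points to the right of the band lie above the line in both replicates.

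Other genes of 1q21 to 1q23 were taken from a list of 40, which was written with earlier results of these data known. Of these, 33 had a shared region in their window, against 69.4% of all protein-coding genes. Within 1 kb of a span end 28 had one, against 50% of all, and 29 reached a fold enrichment of 5 in both replicates, against 42.7% of all. Since the list was chosen with results known, these counts are a description. The median of the best regions was 7.02 and 11.1. CHTOP, which encodes an mRNA export factor, had the best-ranked region (21.6 and 26.1). It was followed by MCL1, a survival gene of myeloma cells (15.1 and 28.8), and INTS3, a subunit of the Integrator complex (14.6 and 31.5). All 3 stood above each of the 7 genes in both replicates. In contrast, the calcium-binding protein genes S100A4, S100A6 and S100A9, the Fc receptor gene FCGR2B and the myeloid gene MNDA had no peak in either list. In the interval from PDZK1 to CKS1B as a whole, 144 of 217 coding genes (66.4%) had a shared region, near the share of all protein-coding genes. Ranked within the interval, ILF2 came 47th (by the region at SNAPIN), ANP32E 52nd, CKS1B 72nd (by that at FLAD1) and PDZK1 140th.

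**Figure D5:**
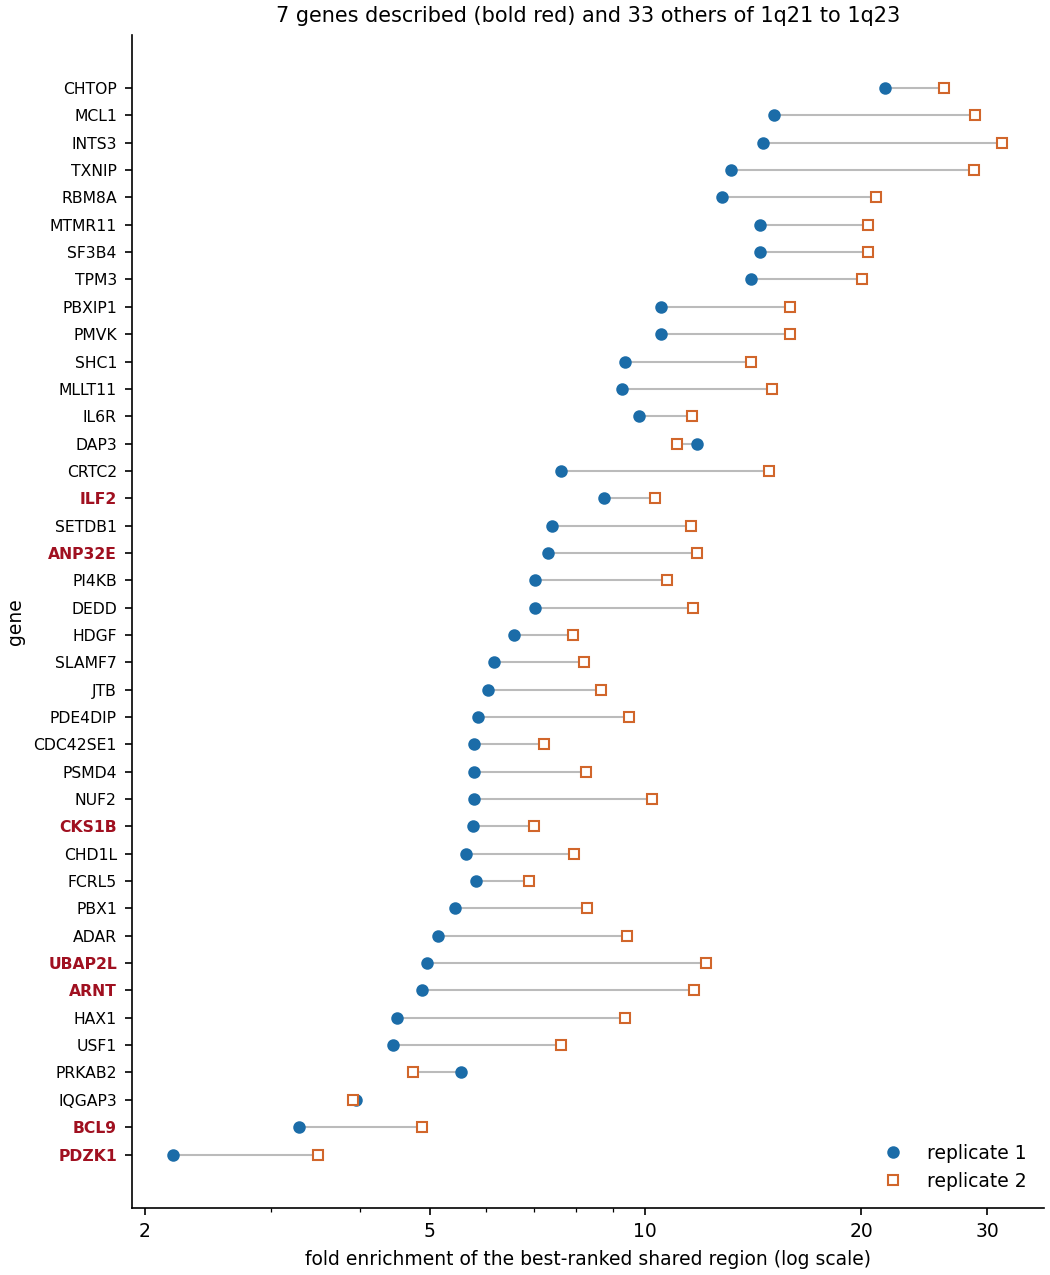
Fold enrichment (x axis, log scale) of the best-ranked shared region within 10 kb of each gene (y axis), with filled circles for replicate 1 and open squares for replicate 2, for the 7 genes described (bold red) and the 33 others of the list with a shared region. CHTOP, MCL1 and INTS3 are at the top, and BCL9 and PDZK1 at the bottom.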

How the data were processed

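IRF3 ChIP-seq was analysed from the peak lists of 2 ChIP libraries of MM1.S cells. MACS2 2.1.2 was run by the authors on each library with an input library of its own, at a q-value cutoff of 0.05 and with all duplicate tags kept, per the file headers. The submitters' processing notes list deepTools 3.3.1, SAMtools 1.2, Picard 2.6.0, BWA 0.7.15, MACS2 2.1.1 and build GRCh38, without their roles. The input libraries held 58025919 and 60348415 tags per the file headers. The deposited values per peak were the pileup, a signal at the summit, the fold enrichment, a ratio of pileup to local input background, and the −log10 p and −log10 q, whose damaged column names were settled by column order and values.

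Peaks sharing at least 1 bp were merged into regions (pandas 2.3.3, numpy 2.4.6, Python 3.11.15). Within a region the peak of highest fold enrichment stood for each replicate, and the summit was that of the peak with the better percentile in its list. A region went to a gene when a summit of its peaks lay in the span plus 10 kb. Start sites came from the RefSeq promoter table and spans from the RefSeq gene table, both of GRCh38.p14. The local background was (pileup + 1) / fold enrichment − 1, scipy 1.17.1 giving the Poisson check. The merging was tested on simulated data. The 7 genes, the list of 40 genes and the 10 motifs were chosen with earlier results of these data known. The named genes were the 7, the coding gene nearest to each region, the 3 best-ranked of the list of 40 and up to 5 of it with no peak. Alternatives are given in the closing section.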

Additional observations from a re-analysis of the deposited data

How the results depend on the processing

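Fold enrichment of at least 5 dropped the count to 3 genes with 3 shared regions. The count of 7 genes with a shared region was 6 with the span alone (without ARNT) and with a −log10 q of at least 10 (without PDZK1), and stayed at 7 with 1 kb or 50 kb added, with summits within 100 bp, with 50% reciprocal overlap, and with regions nearer to another coding gene left out. The 16 shared regions became 10 with the span alone, 39 with 50 kb added, and 9 without regions nearer to another coding gene. In that last setting UBAP2L was counted by the weak region just inside its end (2.29 and 3.07). Its start region was left out, because the summit was nearer to an end of LTAP1. Of the 5 genes with a region at the start, 0 had a start region with fold enrichment of 5 or more, and 6 were counted within 5 kb, where the sixth was ANP32E, counted by its span end since the promoter table gave no start for it. Leaving out a replicate gave 7 genes either way, 19 to 21 regions, and 5 to 6 genes at the start, the sixth again ANP32E by its span end. The background ratio, 1.55 as the mean of both replicates, ranged from 1.46 to 1.63 over its alternatives, where subsets of peaks were taken as means of both replicates. By single replicate the range was wider. Peaks over 10 kb from a coding gene end gave 1.64 in replicate 1 and 1.35 in replicate 2. No paired analysis was possible because the ChIP samples alone entered with a peak list each, with an input already inside each peak call and no second condition to pair.

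A peak list holds no value below its calling threshold, so occupancy under it was not detectable at this depth.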

Other observations

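The 217 coding genes from PDZK1 to CKS1B include gene families of the epidermal differentiation cluster. The families were chosen after their values were seen. Of 19 late cornified envelope genes 2 had a shared region in their window, LCE3A and LCE3B, and of 11 small proline-rich protein genes 2 did, SPRR2F and SPRR4. Among 16 S100A genes the count was 4, with S100A1, S100A2, S100A11 and S100A13. Of the other 171 coding genes in the interval, 136 had one (79.5%).

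By background, chromosome 14 had the lowest median of the chromosomes compared in both replicates, 9.05 and 5.39 fragments over all peaks, followed by the X chromosome with 9.58 and 6.16. Chromosome 13 came next with 10.6 and 6.93. The order of these 3 was the same in both libraries.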
